A study of Capra hircus with 12 samples.

Results

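The ZNF genes are the numbered members of the zinc finger family, and 214 of them were described here in cultured goat cells. A member was a row of the count tables whose symbol was ZNF followed by a number, with or without a closing letter, and that held 20 or more counts in each of the 12 libraries. Of the 28910 rows in each table, 256 carried such a symbol and 214 met the count rule. The members were selected by symbol and count, with earlier results of these data known, and the count rule includes the LOXL2-labelled libraries. Another 11705 genes passed the same count rule and served as the comparison. Of the 42 ZNF rows left out, 5 held no count in any library and 19 had enough counts to be tested in the superficial layer. Just inside the rule were ZNF311 and ZNF404, whose lowest counts in any library were 20 and 21. Just outside were ZNF696, ZNF300 and ZNF484, each with a lowest count of 19.

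A zinc finger of the C2H2 type is a short loop of protein held by a zinc ion between paired cysteines and histidines, and a row of such fingers reads a stretch of DNA or, in some members, RNA. Many ZNF proteins of mammals also carry a KRAB domain, which binds the corepressor TRIM28 (KAP1) and through it the histone methyltransferase SETDB1 and heterochromatin proteins of the CBX family, so that the bound DNA is silenced. KRAB zinc finger genes arose by repeated duplication, lie in groups along the chromosomes and are known above all for silencing transposable elements. Other members act as activators, as scaffolds of corepressor complexes, in mitosis or in ribosome assembly.

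The cells came from the condylar cartilage of the temporomandibular joint (TMJ) of female goats under 1 year of age, and were passaged before use. The superficial layer (SLC) and the middle cartilage layer (MLC) were cultured apart, and both kinds of cell were treated with the cytokine IL-1β, either alone or after overnight transduction with an adenovirus carrying lysyl oxidase-like 2 (LOXL2), with 3 libraries in each of the 4 groups. All groups had therefore received IL-1β, and vehicle-treated cells were not analysed here. An empty adenovirus is named for the flow cytometry of the study but neither in its culture methods nor in the labels, so for these libraries LOXL2 and the virus cannot be told apart.

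The libraries held 14158607 to 28931652 counts, of which the 214 ZNF genes took between 0.448% and 0.560%. The LOXL2 transcript itself was no more abundant in libraries carrying the IL-1β + LOXL2 label. It stood in SLC at 11673, 11763 and 11959 normalized counts with IL-1β and at 8546, 10133 and 10400 in the LOXL2-labelled libraries (log2 fold change -0.27 ± 0.11 SE, edgeR adjusted p = 0.106). In MLC it stood at 14398, 16380 and 15303, against 15278, 14789 and 13794 (-0.07 ± 0.09 SE, edgeR adjusted p = 0.595). The species of the delivered LOXL2 was not given in the sources used here, and whether its reads reached the goat gene was not tested. Every direction given here is therefore one between libraries as labelled. Among cell type markers, the summed level of 7 chondrocyte genes was 24504 to 27051 normalized counts in SLC with IL-1β and 13794 to 24176 in the LOXL2-labelled SLC libraries. The defining cartilage genes COL2A1 and COL9A1 were at 0 counts in some SLC libraries and no higher than 350 and 358 counts in any library. They were higher in MLC than in SLC under IL-1β by 11.3 and 11.1 on the log2 scale (edgeR adjusted p = 1.13e-06 and 1.33e-07). In MLC the sum of the 7 was 32673 to 35498 and 27198 to 34691. COL11A1 alone held 13924 to 29093 counts per library and differed little between layers under IL-1β (-0.045, edgeR adjusted p = 0.895). ACAN, SOX9 and COMP were higher in MLC by 3.07, 2.03 and 1.02 (edgeR adjusted p = 4.5e-07, 1.2e-06 and 0.000313). Between treatments COMP rose in MLC (0.37, edgeR adjusted p = 0.0283), whereas COL11A1, ACAN and SOX9 had negative fold changes in both layers and did not pass. The summed level of 5 muscle genes was 6.75 to 10.3 normalized counts in SLC with IL-1β and 10.99 to 15.2 in the LOXL2-labelled SLC libraries, and 7.48 to 11.9 and 8.70 to 12.1 in MLC, with MYOG at 0 throughout. The sum of 4 epithelial genes was 7.59 to 37.3 and 11.9 to 15.2 in SLC but 133 to 182 and 164 to 277 in MLC, with KRT5 at 0 and KRT14 the highest, at up to 275 counts. KRT14 was higher in MLC than in SLC under IL-1β by 5.54 on the log2 scale (edgeR adjusted p = 1.35e-05). In the same order, 5 endothelial genes summed to 56.9 to 76.5 and 54.5 to 64.6 in SLC. In MLC they came to 83.3 to 97.9 and 67.5 to 87.7. The 5 leukocyte genes summed to 1470 to 1799 and 1034.5 to 1793 in SLC. In MLC they came to 1787 to 2632 and 1552 to 1864, and CD14 held 1034 to 2219 counts per library. For 5 osteoclast and osteoblast genes the sums were 43598 to 58379 and 55707 to 61950 in SLC. In MLC they were 32642 to 45177 and 38995 to 42735, and CTSK held 24632 to 90039 counts per library. The 6 fibrocartilage and superficial layer genes summed to 1126220 to 1170230 and 997425 to 1160040 in SLC. In MLC they came to 981074 to 1030420 and 1010240 to 1082180. Most of each sum was COL1A1 and COL1A2, at 462069 to 916891 and 230779 to 471061 counts per library. Single genes of this list differed in direction between layers under IL-1β. TNC and DCN were higher in MLC (1.15 and 1.03, edgeR adjusted p = 0.00355 and 9.96e-06). COL1A2 and THY1 were lower (-0.34 and -0.60, edgeR adjusted p = 0.0267 and 0.000725). PRG4, at 73 to 149 counts per library, and COL1A1 did not pass. Fewer cells of a type and less RNA per cell cannot be told apart in such bulk libraries, and the part of these markers in the results was not tested.

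In both layers more ZNF genes were lower than higher in the LOXL2-labelled libraries, and the ZNF genes as a group lay below the other genes. In SLC, 138 members had a lower fitted level and 76 a higher one, with a median fold change of -0.16 on the log2 scale, against 0.025 for the 11705 other genes, of which 48.5% were lower. MLC had 128 lower and 86 higher members and a median of -0.11, against 0.018 for other genes. Of the 19 tested ZNF rows that missed the count rule, 15 were lower in SLC and 14 in MLC, at medians of -0.38 and -0.42. The rule includes the LOXL2-labelled libraries, so a row can miss it because it fell there. ZNF354C held 174, 166 and 106 counts in SLC with IL-1β and 131, 17 and 37 in the LOXL2-labelled libraries. The left-out rows are therefore no separate support for the direction. These medians are descriptions of the lists and carry no test.

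The position of the ZNF genes was also read library by library, as the median log2 ratio of the members to the mean of the layer's 3 IL-1β libraries, minus the same median over other genes. It was 0.030, 0.012 and -0.041 in the SLC IL-1β libraries, and -0.057, -0.30 and -0.20 in the 3 LOXL2-labelled SLC libraries. In MLC it was -0.019, 0.011 and -0.0019 with IL-1β, and -0.062, -0.10 and -0.17 in the LOXL2-labelled libraries. All 6 LOXL2-labelled libraries lay below all 6 IL-1β libraries on this measure, and the first replicate of each LOXL2-labelled group lay closest to the IL-1β libraries.

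**Figure D1:**
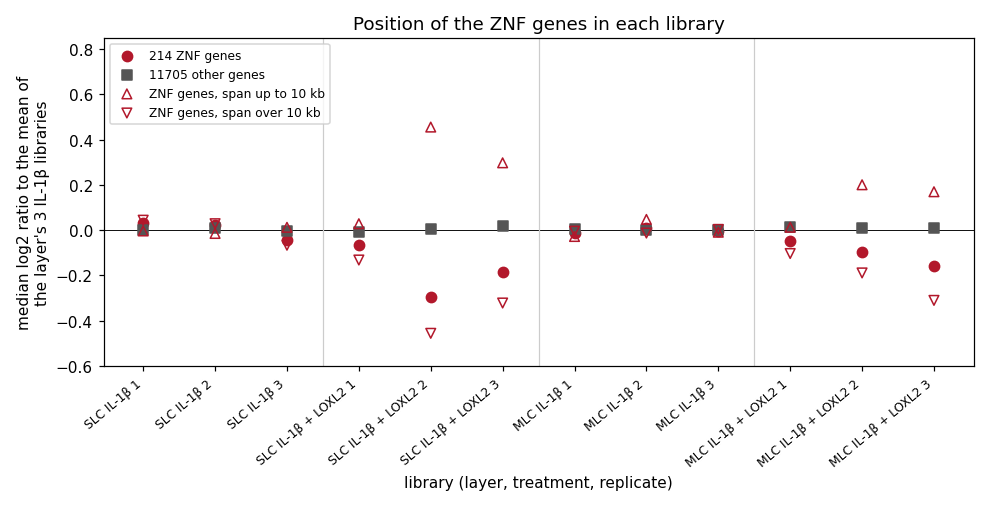
Median log2 ratio of each gene set to the mean of its layer's 3 IL-1β libraries, one position per library on the x axis. Filled circles are the 214 ZNF genes, squares the 11705 other genes, and open triangles the ZNF genes of short (up) or long (down) genomic span. The other genes are most of the genes used for scaling, which holds their median near 0, and each IL-1β library is part of the mean it is set against. The ZNF genes lie at -0.067, -0.29 and -0.19 in the LOXL2-labelled SLC libraries and at -0.046, -0.094 and -0.16 in those of MLC.

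The first LOXL2-labelled SLC library stood apart from its replicates. The chi-square per degree of freedom between replicates was 159 and 58.1 for the pairs that held it and 29.2 for the remaining pair, whereas within the SLC IL-1β group it was at most 7.39. The first LOXL2-labelled MLC library stood apart too, at 15.2 and 33.9 for its pairs and 5.81 for the remaining pair. Within the MLC IL-1β group the value was at most 9.37. With all 6 SLC libraries, the quasi-likelihood test of edgeR, with p-values adjusted by Benjamini and Hochberg's method, called 0 of the 214 members, and 0% of the 14103 genes tested, at an adjusted p of 0.05. At an unadjusted p under 0.05, 92 members passed (60 lower and 32 higher), and the smallest adjusted p was 0.0706. That is 43.0% of the members, against 43.3% of all genes tested and 47.3% of the other genes passing the count rule. DESeq2's Wald test called 70 members (47 lower, 23 higher), with 30% of all genes called, and a fit of all 12 libraries called 91 (57 lower, 34 higher), with 41.0% of all genes called. Without the first LOXL2-labelled library, 93 members were lower and 51 higher past the threshold. Of all genes tested in that fit, 30.8% were lower and 31.0% higher, so the members' shares were 43.5% and 23.8%.

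In MLC, 44 of the 214 members (20.6%) passed the edgeR test, of which 31 were lower and 13 higher in the LOXL2-labelled libraries. Among all 13664 genes tested, 11.8% were lower and 9.81% higher past the threshold, and the members' shares were 14.5% and 6.07%. This count changed when single libraries were left out, and so did the share of all genes called. Leaving out the first IL-1β library, the third IL-1β library or the second LOXL2-labelled one brought both to 0. The count was 11 without the second IL-1β library and 6 without the third LOXL2-labelled one, when 5.95% and 3.43% of all genes passed. It was 105 without the first LOXL2-labelled library, when 48.1% of all genes passed. In the fit of all 12 libraries 0 members and 0% of all genes passed.

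Counts of genes whose libraries did not overlap need no fitted spread. In SLC the 3 LOXL2-labelled libraries were all below the 3 IL-1β libraries for 77 members (36.0%), against 27.7% of other genes, and all above them for 36 members (16.8%), against 25.4%. In MLC they were all below for 61 members (28.5%), against 21.6%, and all above for 27 (12.6%), against 22.9%. There were 45 members lower without overlap in both layers (21.0%), against 16.6% of other genes, and 17 higher without overlap in both (7.94%), against 15.4%. Opposite directions without overlap were seen for 0 members and for 16 of the 11705 other genes.

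The fold changes of the layers ran together. Over the 214 members Pearson's r between the SLC and MLC log2 fold changes was 0.882 and Spearman's rho was 0.861, as a description over genes that are no replicates of each other. The same rho over the 11705 other genes was 0.916. The fold change was negative in both layers for 119 members, positive in both for 67 and of opposite sign for 28. All 31 members that fell in MLC had a lower fitted level in SLC too, 28 of them without overlap, and all 13 that rose in MLC were higher in SLC, 9 without overlap. Among other genes the direction was shared by 1491 of 1496 that fell and 1309 of 1313 that rose. Without overlap in SLC were 1339 (89.5%) and 1035 (78.8%) of these other genes, against 90.3% and 69.2% of the members. An interaction term over the 12 libraries tested the difference of the layers, and edgeR's quasi-likelihood test called 0 members and 0% of all 14534 genes after Benjamini-Hochberg adjustment. DESeq2's Wald test also called 0 members, and 4 members (1.87%) passed an unadjusted p under 0.05 in the edgeR fit, against 2.26% of all genes. These were ZNF132, ZNF268, ZNF276 and ZNF782, named after their values were seen, and their edgeR adjusted p was 0.959 at the smallest.

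**Figure D2:**
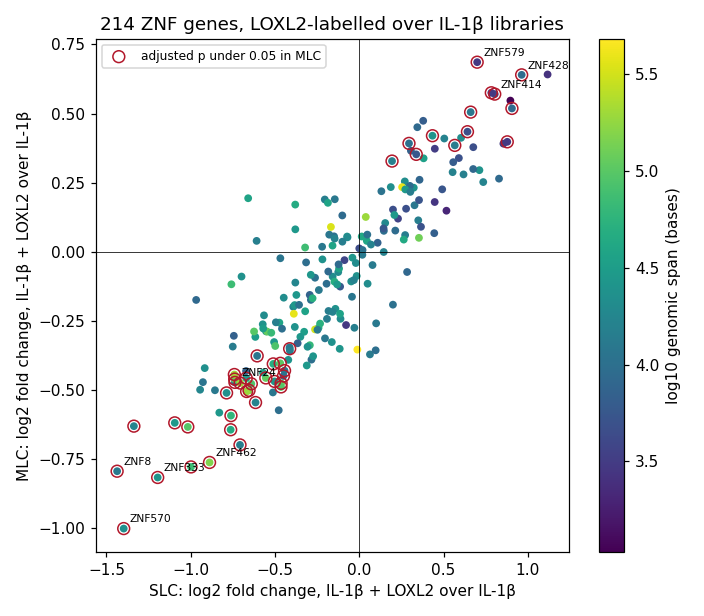
Log2 fold change of each of the 214 ZNF genes in SLC (x axis) and MLC (y axis), LOXL2-labelled over IL-1β libraries, coloured by the log10 of genomic span in bases. Red rings mark the 44 members past the threshold in MLC, and 186 of the points lie in the quadrants where both layers have the same sign.

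The largest decreases included KRAB zinc finger genes and long genes with many fingers. These genes were chosen by their fold change, so their values are descriptions. ZNF8, a KRAB zinc finger gene (chromosome 18, 67023465 to 67036595 in the goat assembly ARS1.2), stood at 224, 282 and 198 normalized counts in SLC with IL-1β and at 158, 38.5 and 61.7 in the LOXL2-labelled libraries. In MLC it stood at 235, 159 and 204 with IL-1β and at 157, 106 and 79.6 in the LOXL2-labelled libraries. The groups did not overlap in either layer, although in MLC the highest LOXL2-labelled and the lowest IL-1β library differed little. The log2 fold change was -1.44 ± 0.47 (SE) in SLC, with an edgeR adjusted p of 0.0751, and -0.79 ± 0.23 in MLC, with an edgeR adjusted p of 0.0321. Without the first LOXL2-labelled library the SLC value was -2.24.

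ZNF570, also a KRAB zinc finger gene (chromosome 18, 48318737 to 48340660), had the largest decrease in MLC. Its normalized counts in SLC were 134, 139 and 103 with IL-1β and 85.1, 23.4 and 33.8 in the LOXL2-labelled libraries. In MLC they were 95.2, 103 and 84.8, and 67.7, 45.2 and 27.2. The log2 fold change was -1.40 ± 0.44 (SE) in SLC and -1.001 ± 0.27 in MLC, where the edgeR adjusted p was 0.0284. All LOXL2-labelled libraries lay below all IL-1β libraries in each layer, by a margin in the first replicates that was smaller than in the others.

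ZNF333 (chromosome 7, 96462787 to 96488875), which encodes a protein with KRAB domains and overlaps the uncharacterized gene LOC102185454, fell from 444, 417 and 395 to 285, 222 and 202 normalized counts in MLC (-0.82 ± 0.14 SE, edgeR adjusted p = 0.0190). In SLC it was at 499, 580 and 450, and at 403, 85.2 and 174 in the LOXL2-labelled libraries (-1.20 ± 0.49 SE). The SLC decrease was carried mainly by the second and the third library. The settings for strand were not given in the sources used here, so reads of the overlapping gene cannot be told apart from those of ZNF333.

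ZNF462, a many-fingered gene needed for embryonic development (chromosome 8, 96399437 to 96552020), fell from 1237, 1044 and 1194 to 860, 631 and 550 in MLC (-0.76 ± 0.14 SE, edgeR adjusted p = 0.0190). In SLC the values were 992, 984 and 850 with IL-1β and 803, 278 and 430 in the LOXL2-labelled libraries (-0.89 ± 0.35 SE). ZNF236, known as a glucose-responsive gene with many fingers, was similar, with -0.78 ± 0.17 in MLC (edgeR adjusted p = 0.0200) and -0.998 ± 0.35 in SLC. ZNF275, whose place on the chromosomes is unknown in this assembly, stood at 405, 464 and 406 and at 304, 84.5 and 112 in SLC (-1.34 ± 0.44 SE), and at -0.63 ± 0.18 in MLC (edgeR adjusted p = 0.0337). ZNF518A, a partner of histone methyltransferases, was at 324, 358 and 299 and at 248, 88.6 and 119 in SLC (-1.09 ± 0.35 SE). For all of these genes the first LOXL2-labelled SLC library lay nearest to the IL-1β libraries.

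The largest increases were in short genes, most of them on chromosome 18. ZNF428 (chromosome 18, 52905456 to 52914576), a little-described gene that overlaps SRRM5, stood at 576, 581 and 587 normalized counts in SLC with IL-1β and at 648, 1581 and 1142 in the LOXL2-labelled libraries (0.96 ± 0.28 SE, edgeR adjusted p = 0.0706). In MLC it rose from 484, 545 and 439 to 592, 847 and 841 (0.64 ± 0.15 SE, edgeR adjusted p = 0.0207). The IL-1β libraries lay close together in both layers, and the first LOXL2-labelled library was again the nearest to them.

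ZNF414 (chromosome 7, 93308733 to 93312423) was at 473, 438 and 486 in SLC with IL-1β and at 604, 1002 and 809 in the LOXL2-labelled libraries (0.80 ± 0.18 SE, edgeR adjusted p = 0.0706). It rose in MLC from 611, 592 and 543 to 695, 933 and 957 (0.57 ± 0.13 SE, edgeR adjusted p = 0.0205). ZNF579 (chromosome 18, 63709822 to 63712740) had the largest increase in MLC, from 397, 430 and 410 to 458, 724 and 801 (0.69 ± 0.17 SE, edgeR adjusted p = 0.0241). In SLC its first LOXL2-labelled library, at 393, lay within the IL-1β values of 404, 397 and 358, whereas the others were at 879 and 591.

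ZNF580, a gene known for its role in endothelial cell migration, had the largest increase in SLC, at 336, 359 and 332 with IL-1β and 391, 1133 and 683 in the LOXL2-labelled libraries (1.117 ± 0.34 SE, edgeR adjusted p = 0.0712). In MLC its log2 fold change of 0.64 ± 0.23 missed the threshold (edgeR adjusted p = 0.0612). ZNF444, a SCAN-domain factor, and ZNF575 rose in MLC by 0.52 ± 0.16 and 0.40 ± 0.13, and were at 0.91 ± 0.27 and 0.88 ± 0.26 in SLC. ZNF524, a telomere-binding factor, was at 0.85 ± 0.25 in SLC and 0.39 ± 0.18 in MLC, where its groups overlapped. ZNF784 rose in MLC by 0.58 ± 0.18, from 95.2, 99.1 and 88.5 to 126, 125 and 168 normalized counts. The SLC increases leaned on the second LOXL2-labelled library. Without it ZNF580 was at 0.66, below ZNF784 at 0.68, and ZNF444 was at 0.59, ZNF524 at 0.56, ZNF575 at 0.53 and ZNF579 at 0.37.

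**Figure D3:**
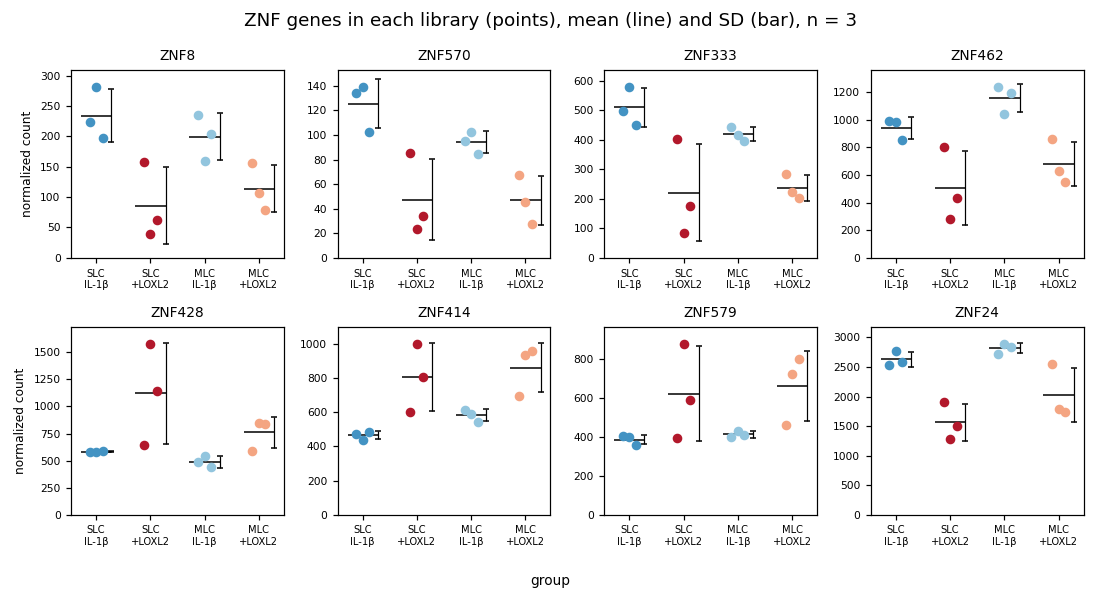
Normalized counts (y axis, from 0) of 8 ZNF genes in the 3 libraries of each group (x axis), with the group mean as a line and the SD as a bar. ZNF8, ZNF570, ZNF333, ZNF462 and ZNF24 are lower and ZNF428, ZNF414 and ZNF579 higher in the LOXL2-labelled groups, and the first of the 3 points in each LOXL2-labelled SLC group lies nearest to the IL-1β points.

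Direction followed the genomic span of the gene, which is its length with introns, within the ZNF genes as it did in other genes. The 57 members spanning up to 10 kb had medians of 0.29 (SLC) and 0.15 (MLC) on the log2 scale, with 39 of them higher in each layer. The 107 members of 10 to 30 kb were at -0.19 and -0.16, the 33 of 30 to 100 kb at -0.38 and -0.26, and the 17 over 100 kb at -0.47 and -0.40. Spearman's rho between span and fold change over the members was -0.482 in SLC and -0.437 in MLC, against -0.569 and -0.558 over other genes, given as a description across genes. The 31 members that fell in MLC had a median span of 43803 bases and the 13 that rose one of 8535 bases.

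The medians of the ZNF genes lay below those of other genes of like span. The members were not longer than the comparison, with a median span of 16093 bases against 22796. Within the bin of 10 to 30 kb, which holds the most members, 72.0% of ZNF genes were lower in SLC against 39.4% of the 3480 other genes of that span, whose medians were 0.10 in SLC and 0.073 in MLC. Over 100 kb the share went the other way, with 82.4% of ZNF genes lower in SLC against 84.0% of other genes, and 76.5% against 82.3% in MLC. In the shortest bin the other genes stood at 0.42 and 0.26, and in the longest at -0.44 and -0.30, so that the members' median lay below that of the other genes in each of the 4 bins of both layers. In the longest SLC bin the distance was smallest. After the trend with span was removed from each library, the members' median minus that of other genes was -0.22 in SLC and -0.14 in MLC, against -0.19 and -0.13 before. In that fit 27 members (12.6%) passed in MLC, 21 lower and 6 higher, against 14.7% of all genes.

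**Figure D4:**
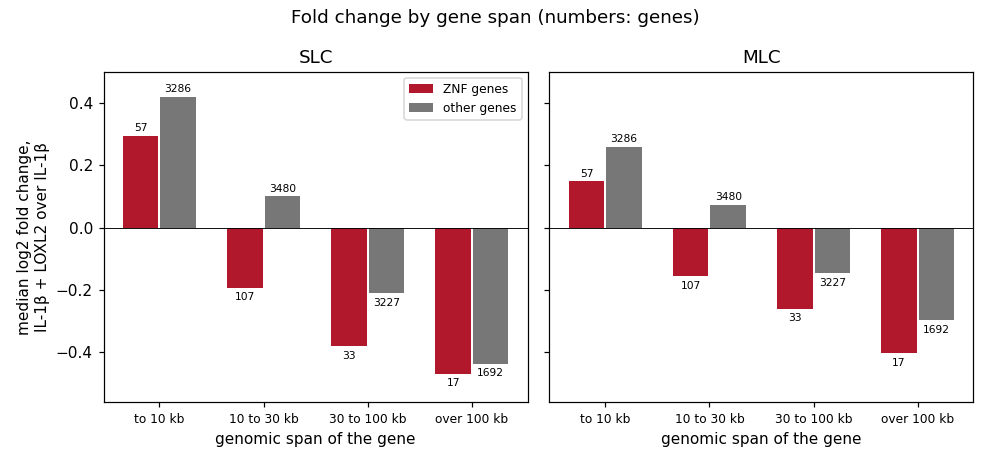
Median log2 fold change (bars from 0) of ZNF genes and other genes in 4 bins of genomic span, LOXL2-labelled over IL-1β, for SLC and MLC. Numbers at the bars count the genes, and the ZNF bar is below the other-gene bar in each bin.

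The medians were negative over the whole range of counts. Split by their mean count into 3 sets, the 72 members of lowest count lay at medians of -0.17 (SLC) and -0.16 (MLC), the middle 71 of -0.24 and -0.13, and the highest 71 of -0.12 and -0.045. Other genes in the same count ranges had medians between -0.0052 and 0.037.

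By position, 60 of the 214 members lay on goat chromosome 18 and 18 on chromosome 25, and 54 lay in 10 groups of neighbouring ZNF genes. The groups hold 4 or more ZNF genes less than 100 kb apart and were drawn with the fold changes known. The 7 ZNF genes between 63648695 and 63784775 on chromosome 18 (ZNF524, ZNF579, ZNF580, ZNF581, ZNF628, ZNF784 and ZNF865) were all higher in both layers. Their median was 0.70 in SLC and 0.39 in MLC, where ZNF579, ZNF784 and ZNF865 passed the threshold. In MLC 9.81% of all genes rose past it, as did 872 of the 3286 other genes spanning up to 10 kb. The median span of the 7 is 3065 bases. The 2 other genes between the ends of this group that passed the count rule had medians of 0.31 and 0.060. Their median span is longer, at 14357.5 bases.

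The remaining groups were lower or mixed. All 5 members between 47670585 and 47886654 on chromosome 18, among them ZNF382 and ZNF567, were lower in both layers (medians -0.37 and -0.26), with 0 past the threshold by edgeR's test in MLC. The group around ZNF8 at 66942082 to 67158521 held both directions, with ZNF8 at -1.44 and ZNF274 at 0.71 in SLC. Over the chromosome as a whole the 60 members had a median of -0.17 in SLC and -0.042 in MLC, while the 657 other genes of chromosome 18 stood at 0.23 and 0.16. On chromosome 24 all 6 members were lower in both layers and 4 of them fell in MLC, and the 163 other genes there had medians of -0.21 in SLC and -0.13 in MLC, with 31 that fell. The 18 members of chromosome 25 had medians of 0.25 and 0.072, and its 440 other genes 0.26 and 0.17.

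By role, 25 members of known role, most of them outside KRAB repression, were looked at in lists, and 9 of them passed the threshold in MLC, where 21.6% of all genes passed. Of 7 activators and looping factors, 3 fell in MLC, where 11.8% of all genes fell, and 4 did not pass. ZNF148, a GC-box factor also called ZBP-89, was at 749, 778 and 651 and at 611, 366 and 393 normalized counts in SLC (-0.65 ± 0.21 SE), and fell in MLC from 596, 594 and 570 to 505, 367 and 365 (-0.50 ± 0.13 SE, edgeR adjusted p = 0.0255). Its close relative ZNF281, a regulator of stemness genes, fell in MLC by 0.38 on the log2 scale, and stood at -0.61 ± 0.16 in SLC. ZNF24, which is needed for cell proliferation, fell in MLC from 2723, 2895 and 2840 to 2546, 1787 and 1744 (-0.47 ± 0.13 SE, edgeR adjusted p = 0.0283).

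In SLC, ZNF24 was at 2531, 2766 and 2590 and at 1908, 1276 and 1498, a difference of -0.74 ± 0.16 without overlap. ZNF143, which binds promoters at chromatin loops, was at -0.29 ± 0.14 in SLC, or -0.013 with the span trend removed, and at -0.34 ± 0.15 in MLC, and did not pass, and its paralog ZNF76 was at 0.27 ± 0.15 and 0.23 ± 0.12. ZNF410, an activator of CHD4, was at 0.26 ± 0.11 and 0.04 ± 0.10, and ZNF384 was at -0.02 ± 0.10 and -0.04 ± 0.11.

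Of 7 corepressor and chromatin partners, 3 fell in MLC, where 11.8% of all genes fell, and 4 did not pass. ZNF217, part of a CoREST and CtBP complex, fell from 982, 862 and 850 to 750, 603 and 530 in MLC (-0.51 ± 0.13 SE, edgeR adjusted p = 0.0236), and was at 848, 795 and 715 against 594, 337 and 422 in SLC (-0.79 ± 0.21 SE). ZNF451, a SUMO ligase, fell in MLC by 0.49 and stood at -0.46 ± 0.13 in SLC, or at -0.24 and -0.088 with the span trend removed. ZNF518A fell in MLC by 0.62, although its groups overlapped there. ZNF644, a partner of the methyltransferases EHMT1 and EHMT2, was at -0.62 ± 0.18 in SLC without overlap and at -0.29 ± 0.11 in MLC.

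ZNF592 and ZNF687, which share a complex, were at -0.23 ± 0.13 and -0.18 ± 0.10 in SLC, and at -0.26 ± 0.10 and -0.07 ± 0.09 in MLC. ZNF274 went the other way. It recruits SETDB1 to zinc finger genes themselves, and its normalized counts were 195, 129 and 167 against 201, 311 and 284 in SLC (0.71 ± 0.22 SE, edgeR adjusted p = 0.0715) and 145, 158 and 170 against 190, 186 and 202 in MLC (0.30 ± 0.14 SE, edgeR adjusted p = 0.128). The groups did not overlap in either layer, and it overlaps the annotated gene LOC106503176.

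Among 6 RNA and ribosome factors, 1 rose in MLC, where 9.81% of all genes rose, and 5 did not pass. ZNF622, a maturation factor of the large ribosomal subunit, rose from 1072, 1199 and 1062 to 1349, 1476 and 1512 in MLC (0.38 ± 0.10 SE, edgeR adjusted p = 0.0238). In SLC it was at 911, 926 and 970 and at 977, 1759 and 1383 (0.57 ± 0.20 SE). ZNF593, another factor of large subunit assembly, was at 0.90 ± 0.29 in SLC and 0.55 ± 0.19 in MLC, where its edgeR adjusted p was 0.0518. ZNF598, which senses collided ribosomes, was at 0.13 ± 0.10 and 0.22 ± 0.11, and ZNF346, which binds double-stranded RNA, at 0.32 ± 0.13 and 0.23 ± 0.17. ZNF638, a nucleoplasmic RNA-binding protein, was at -0.50 ± 0.15 and -0.34 ± 0.11, and ZNF326, a splicing factor, at -0.16 ± 0.11 and 0.02 ± 0.11. ZNF207, which carries BUB3 to kinetochores in mitosis, was at -0.55 ± 0.17 in SLC and -0.29 ± 0.10 in MLC.

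Of the 4 skeletal, mesenchymal and matrix factors, 1 fell and 1 rose in MLC, where 11.8% of all genes fell and 9.81% rose. ZNF469, which is mutated in brittle cornea syndrome and affects collagen fibrils, fell from 2707, 2493 and 2829 to 2171, 2095 and 1777 in MLC (-0.41 ± 0.10 SE, edgeR adjusted p = 0.0229). In SLC it was at 3128, 3068 and 2623 and at 2433, 1762 and 1933 (-0.51 ± 0.15 SE). ZNF219, a partner of SOX9 on the type II collagen gene, rose in MLC from 662, 732 and 646 to 772, 930 and 852 (0.33 ± 0.11 SE, edgeR adjusted p = 0.0462). In SLC its values of 831, 759 and 803 and of 766, 938 and 1009 overlapped, and the gene overlaps ARHGEF40 and TMEM253 in the annotation.

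ZNF423 and ZNF521, related regulators of mesenchymal fate, did not pass. ZNF521 was at 2593, 2359 and 2224 and at 2456, 1640 and 1823 in SLC (-0.26 ± 0.17 SE), and at -0.28 ± 0.14 in MLC. Both genes span over 300 kb, at 343420 and 313735 bases, and with the span trend removed their SLC values turned positive, to 0.28 and 0.17.

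The partners through which KRAB proteins silence DNA were compared as a list of 18 genes, 17 of them tested and passing the count rule. SLC had 11 lower and 6 higher at a median of -0.097, and 0 passed edgeR's test. MLC had 12 lower and 5 higher at a median of -0.072, and 3 of them fell, where 11.8% of all genes did. These were CBX5, a heterochromatin protein (-0.49 ± 0.13 SE, edgeR adjusted p = 0.0283), FAM208A, a subunit of the HUSH complex (-0.55 ± 0.12, edgeR adjusted p = 0.0200), and ATF7IP, the partner of SETDB1 (-0.64 ± 0.14, edgeR adjusted p = 0.0204). TRIM28 was at 0.36 ± 0.14 in SLC and 0.26 ± 0.10 in MLC, and SETDB1 at -0.097 ± 0.12 and -0.15 ± 0.11, and neither passed.

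Some ZNF genes differed between the layers under IL-1β alone, though a smaller share of them than of all genes. In a fit of all 12 libraries, 34 members (15.9%) passed the threshold, against 25.6% of all genes. Of the 34, 29 were lower and 5 higher in MLC than in SLC. Of all 14534 genes, 11.4% were lower and 14.2% higher in MLC past the threshold, and the members' shares were 13.6% and 2.34%. The members' median log2 difference, MLC minus SLC, was -0.15, against -0.0057 for other genes, and 144 of 214 were lower in MLC. The count was 12 without the first SLC IL-1β library, 18 without the second and 22 without the third, which is 5.61%, 8.41% and 10.3% of members, against 17.6%, 19.1% and 19.5% of all genes. Leaving out MLC IL-1β library 1 or 3 gave 17 members (7.94%), against 18.1% and 18.3% of all genes. The SLC libraries were deeper, and whether the cells of the layers came from the same animals was not given.

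The ZNF genes of chromosome 17 stood out in the difference between layers. Of the 10 members there, 8 were lower in MLC past the threshold, whereas 34 of the 307 other genes of the chromosome (11.1%) were. Of the 6 members grouped between 26907972 and 27265305, 5 passed, namely ZNF10, ZNF26, ZNF140, ZNF268 and ZNF605. ZNF605 was at 436, 423 and 379 normalized counts in SLC and at 276, 272 and 314 in MLC (-0.50 ± 0.15 SE, edgeR adjusted p = 0.0268). ZNF10, the KRAB gene from which the repressor domain of many engineered silencers was taken, was at 135, 155 and 114 in SLC and at 96.5, 88.1 and 73.5 in MLC (-0.63 ± 0.17 SE, edgeR adjusted p = 0.0171). In each of the 8 genes the layers' IL-1β libraries did not overlap. Among all 214 members 89 (41.6%) were lower in MLC without overlap, and among other genes 29.8% were. The genes of chromosome 17 were picked out after their values were seen, so their share is a description.

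The largest differences between layers included members of the ZNF385 family and a KRAB gene. ZNF385D, a relative of a p53 cofactor (chromosome 27, 1190332 to 1572356), was at 116, 155 and 126 in SLC and at 48.9, 42.8 and 27.4 in MLC with IL-1β (-1.72 ± 0.23 SE, edgeR adjusted p = 0.000153). Its relative ZNF385B was higher in MLC, at 64.8, 50.2 and 47.4 against 32.4, 25.3 and 33.6 (0.85 ± 0.26 SE, edgeR adjusted p = 0.0290). ZNF568, a KRAB gene, was at 244, 241 and 204 in SLC and 99.1, 93.0 and 118 in MLC (-1.13 ± 0.28 SE, edgeR adjusted p = 0.0102). ZNF576 was lower in MLC by a log2 difference of -1.08 ± 0.23, with 938, 936 and 1092 against 436, 513 and 432.

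ZNF367, a cell cycle-linked factor, was higher in MLC, at 397, 371 and 426 against 170, 216 and 195 in SLC (1.06 ± 0.24 SE, edgeR adjusted p = 0.00648). ZNF488 was also higher in MLC (1.04 ± 0.28 SE, edgeR adjusted p = 0.0160), although it was near the count limit in SLC, at 21.6, 23.6 and 20.5 normalized counts. Its edgeR adjusted p ranged up to 0.0821, and that of ZNF385B up to 0.124, when an IL-1β library was left out. None of these 6 genes passed the threshold between the treatments in MLC or SLC.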

How the data were processed

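RNA of 12 libraries was measured by sequencing after poly-T selection. Per the labels and the methods of the study, the authors mapped reads to the goat assembly ARS1.2 with HISAT2 and deposited raw counts per gene from featureCounts, 1 table for each layer. How strand and reads with several matches were treated was not given in the sources used here, so counts of similar or overlapping genes are uncertain, and 27 members overlap another annotated gene. Nothing says that replicates are separate animals or cultures, so p-values measure the spread between these libraries. Of the 28910 rows, 26 carried a date in place of a gene symbol and 28884 a RefSeq symbol.

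The main test was edgeR's (version 4.0.16, R 4.3.3): TMM scaling, filterByExpr (minimum count 10, total 15), glmQLFit and glmQLFTest on the 6 libraries of a layer and no block. P-values were adjusted by Benjamini-Hochberg over all genes tested, with a threshold of 0.05. This main test differs from the study's DESeq2, run here as an alternative (1.42.0). Layers and the interaction were tested in 12 libraries. The SE comes from dividing the log2 fold change by the root of F. Normalized counts use DESeq2's size factors over all 12 libraries. The span trend was removed as an offset, by lowess (smoother span 0.3) of log2 CPM on log10 span in each library. Spans and coordinates are RefSeq's for ARS1.2, to which all 214 members matched. The procedure was tested on simulated counts.

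Named genes are the 5 largest decreases and increases without overlap in each layer, 25 genes of known role, the 3 largest layer differences each way past the threshold, and the genes next to the count rule. Levels per length were not computed, for want of transcript lengths, and no sequences are shown. Members, lists, bins and groups were chosen with earlier results of these data known. Alternatives were other size factors, filters and count rules, DESeq2, a replicate block, the span offset, 1 fit of 12 libraries, members without overlapping genes, and each library left out.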

Additional observations from a re-analysis of the deposited data

How the results depend on the processing

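The medians of the ZNF genes kept their sign and moved by less than the spread between libraries (SD 0.083 in SLC, 0.048 in MLC) under every alternative. Counts past the threshold did not. In SLC the count of 0 became 70 with DESeq2 and 91 in the fit of 12 libraries, and ranged from 0 to 144 when single libraries were left out. In MLC the count of 44 became 27 with the span trend removed and 0 in the fit of 12 libraries, and ranged from 0 to 105 when single libraries were left out. The layer count of 34 ranged from 12 to 49 in the same way, and the interaction count was 0 under each alternative. Leaving out a library leaves a group of 2, and counts then went up as well as down. What caused these changes was not tested.

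Whether replicate numbers pair the libraries could not be settled with 3 libraries in each group. Deviations of same-numbered libraries correlated at 0.088, -0.36 and 0.30 in SLC, 0.14, 0.25 and -0.13 in MLC, and -0.13, -0.23 and -0.11 between the layers' IL-1β groups, and not every library correlated best with its own number. With the replicate number as a block, 0 members passed in SLC, 62 in MLC (29.0%, against 29.7% of all genes) and 40 between layers (18.7%, against 27.6%).

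Removing the span trend also moved the values of named genes. In SLC they came to -0.013 for ZNF143, -0.28 for ZNF148, -0.012 for ZNF326, -0.088 for ZNF451, 0.11 for ZNF576, -0.16 for ZNF638, -0.28 for ZNF644 and 0.47 for ZNF593. Of the named genes that had passed in MLC, ZNF148 came to -0.23, ZNF451 to -0.24, ZNF462 to -0.49, ZNF469 to -0.26, ZNF414 to 0.37, ZNF575 to 0.20 and ZNF784 to 0.38.

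Some genes with small fold changes changed sign. With the span trend removed, without and with the block, the SLC values became -0.019 and -0.019 for ZNF598, 0.030 and 0.011 for ZNF592, 0.28 and 0.27 for ZNF423, 0.17 and 0.17 for ZNF521, -0.076 and -0.078 for ZNF488, and 0.47 and 0.44 for ZNF385B, and the MLC value of ZNF521 became 0.012 in both. ZNF385B was at 0.0062 in SLC in the fit of 12 libraries. With single libraries left out, values on both sides of 0 were seen in SLC for ZNF385B, from -0.19 to 0.18, and for ZNF384, from -0.086 to 0.022. In MLC they were seen for ZNF326, from -0.049 to 0.11, for ZNF384, from -0.13 to 0.040, and for ZNF423, from -0.10 to 0.20.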

Other observations

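Other zinc finger families, taken by their symbols, were mostly lower in the LOXL2-labelled libraries too. Of the ZBTB genes, which pair zinc fingers with a BTB domain, 40 were tested in MLC, 31 were lower, 12 fell past the threshold and 0 rose by edgeR's quasi-likelihood test, where 11.8% of all genes fell and 9.81% rose, and the family medians were -0.29 in MLC and -0.45 in SLC on the log2 scale. Of the KLF genes, 14 were tested in MLC and 5 fell (medians -0.21 in MLC and -0.44 in SLC). The SCAN-domain families were similar, with 7 of 8 ZSCAN genes lower in MLC (median -0.36, 1 called) and all 4 ZKSCAN genes lower in both layers (medians -0.33 in MLC and -0.55 in SLC). The 11 ZFP genes tested had medians of -0.13 in MLC and -0.24 in SLC, and the 8 of them that passed the count rule had medians of -0.092 and -0.057. In the layers under IL-1β, all 9 ZSCAN genes tested were lower in MLC than in SLC and 5 passed the threshold, where 11.4% of all genes were lower past it.

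Of the 3 genes just outside the count rule, ZNF300 was at -0.0070 in SLC, ZNF484 at -1.05 (edgeR adjusted p = 0.0817) and ZNF696 at 0.84 on the log2 scale. ZNF696 was at 46.1, 37.1 and 41.9 normalized counts in SLC with IL-1β and at 60.5, 88.0 and 72.7 in the LOXL2-labelled libraries (0.84 ± 0.21 SE, edgeR adjusted p = 0.0706). With a rule of a mean of 20 or more counts in place of 20 in each library, 230 ZNF genes were kept, with medians of -0.17 in SLC and -0.12 in MLC.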
